A study of Mus musculus with 6 samples.

Results

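The genes described here are 10 transcripts that cells make, or make more of, when the kinase ERK is active: the phosphatase genes Dusp6 and Dusp4, the inhibitor genes Spry2, Spry4 and Spred1, the ETS transcription factor genes Etv4 and Etv5, the immediate-early genes Egr1 and Fos, and Phlda1. They were taken by name from the probe sets that carry exactly 1 gene symbol, with the brightest probe set over the 6 arrays standing for each gene, and all 10 were measured among 19938 genes. The arrays compared 3 cultures of mouse embryonic stem (ES) cells given vitamin C with 3 untreated cultures of the same cells. Vitamin C was supplied as the phosphate ester L-ascorbic acid 2-phosphate at 200 μg/ml for 72 hours, and untreated cells were grown alongside for the same time without it. Both groups were of the Oct4-GiP reporter line and grew on gelatin, in N2B27 medium that held LIF (1000 U/ml), the MEK inhibitor PD0325901 (1 μM) and the GSK3β inhibitor CHIR99021 (3 μM). The vitamin C cultures and the untreated cultures therefore both carried the MEK inhibitor, and no group without it was analysed here. One cell line supplied every array. The design text calls the replicates biological triplicates without saying how the cultures were separated, so p-values measure the spread between these arrays.

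In the ERK cascade a growth factor receptor activates RAS, RAS activates RAF, RAF activates MEK, and MEK phosphorylates ERK. Fgf4, which ES cells secrete, acts through this cascade and primes them to leave the naive state, which is why a MEK inhibitor is part of naive culture medium. Active ERK switches on its own brakes: dual-specificity phosphatases that dephosphorylate ERK, and Sprouty and SPRED proteins that act upstream on RAS and RAF. The transcripts of these brakes and of the PEA3-type ETS factors are commonly read as a record of ERK output, and they fall when MEK is inhibited.

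With vitamin C, 5 of the 10 genes rose and none fell. The genes that rose were Phlda1, Dusp6, Spry4, Etv4 and Spry2, by 1.58-fold, 1.51-fold, 1.43-fold, 1.34-fold and 1.27-fold. Among all 19938 genes 5.75% passed the same test as higher and 7.40% as lower, which is 13.2% in all (limma, adjusted p under 0.05 by Benjamini-Hochberg over all genes). At an unadjusted p under 0.05, 6 of the 10 were higher and 0 lower, beside 2736 higher and 3041 lower of all 19938 genes. The median log2 difference of the 10 genes was 0.30, beside 0.01 over all genes tested. The 10 genes were chosen with earlier results of these data known, so their contrasts with all genes are descriptive and no test of the list. For 6 of the 10 the vitamin C arrays all lay above the untreated arrays, and for none did they all lie below, where 16.8% of all genes were separated upwards and 18.2% downwards, 35.0% in all. Leaving out vitamin C replicate 1 brought the count to 2 of 10, and leaving out untreated replicate 1 brought it to 3. Without moderation of the variances 2 of the 10 passed. These are bulk samples, in which a change in the share of cells that make a transcript and a change in its amount per cell cannot be told apart.

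**Figure D1:**
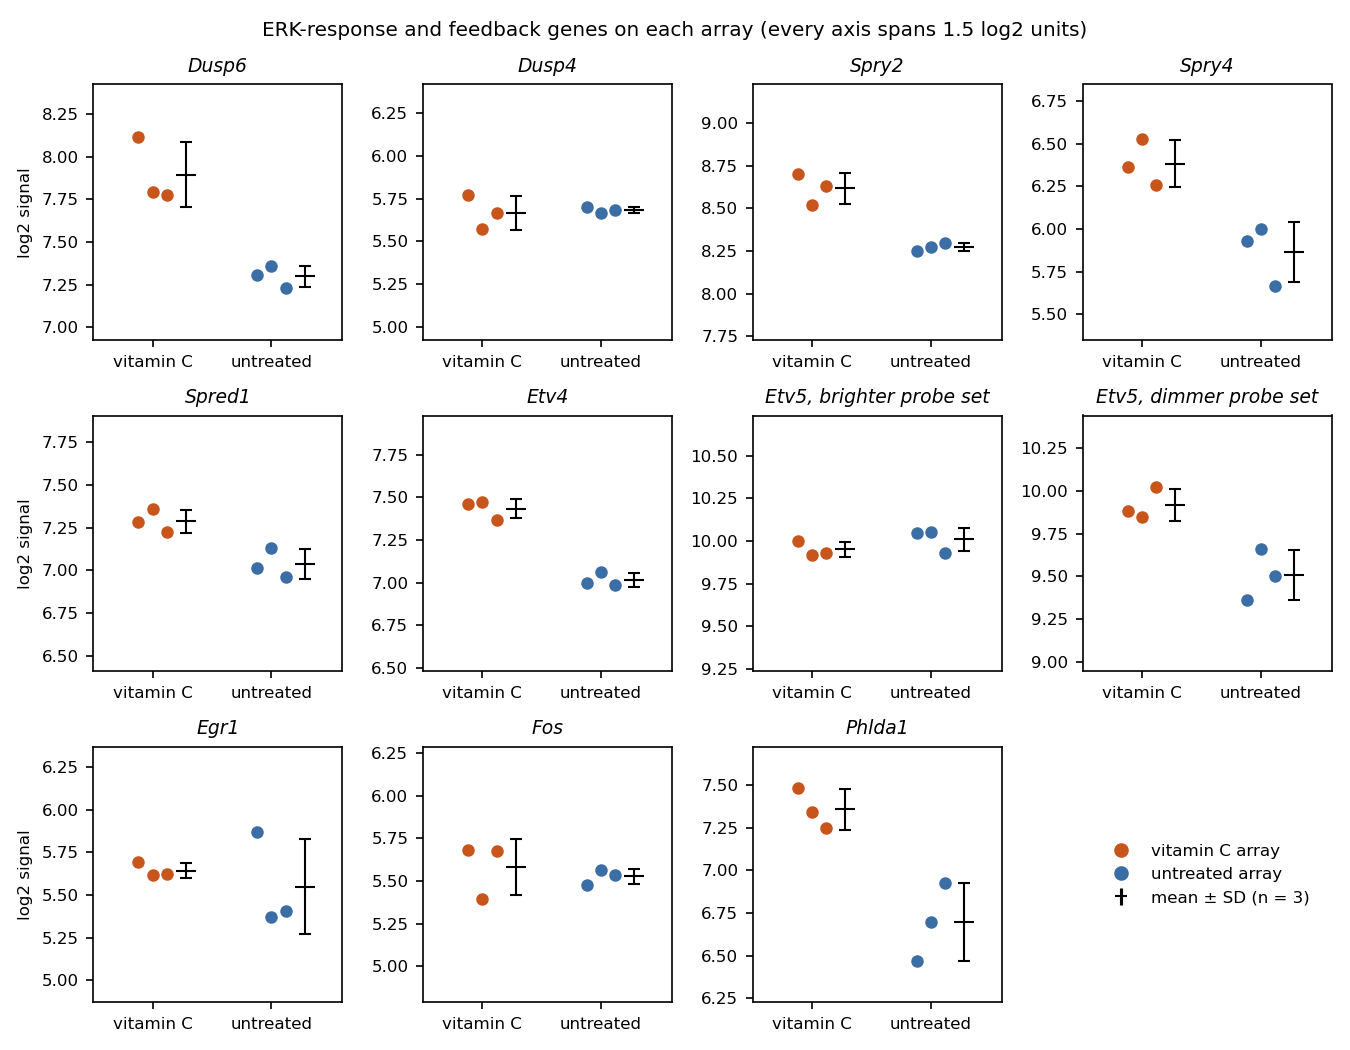
Log2 signal of each gene on every array, with vitamin C arrays at the left of each panel and untreated arrays at the right; dots are arrays, bars are the mean ± SD (n = 3), and every vertical axis spans 1.5 log2 units. The groups separate for Dusp6, Spry2, Spry4, Spred1, Etv4, Phlda1 and the dimmer Etv5 probe set, and overlap for Dusp4, Egr1, Fos and the brighter Etv5 probe set.

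Marker genes describe the cells in which these changes were measured. Their counts stand beside 5.75% of all genes that passed as higher and 7.40% as lower. Of 13 ES cell markers 6 rose and none fell, and the log2 of their summed linear signal was 14.41 to 14.44 with vitamin C and 14.34 to 14.35 in untreated cells. Of 10 primed epiblast markers 1 rose and none fell (10.06 to 10.15 with vitamin C, against 9.98 to 10.02 in untreated cells). Of 14 primitive endoderm markers 4 rose and none fell, with sums of 11.37 to 11.43 with vitamin C and 11.02 to 11.08 in untreated cells. Sparc, 1 of the 4, had the highest signal of them and weighs most in that sum (means of 10.89 with vitamin C and 10.45 in untreated cells). Of 13 fibroblast markers 8 rose, 1 (Pdgfrb) fell and 4 did not pass. Their sums were 9.83 to 9.90 with vitamin C, against 9.27 to 9.33 in untreated cells. Acta2 had the largest difference and, with vitamin C, the highest signal of them (means of 7.51 with vitamin C and 5.68 in untreated cells). Among these markers 3, Lum, Postn and Fap, lay below the lower quartile on all 6 arrays. These marker sums moved with the described genes, and their part in the differences was not tested. Arrays of the vitamin C group correlated with each other at 0.996 across all genes and arrays of the untreated group at 0.995 to 0.996, against 0.989 to 0.990 between groups.

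RefSeq gave promoter sequence (build GRCm38.p6) for Dusp6, Spry2, Spred1, Etv5 and Fos. Dusp4, Spry4, Etv4, Egr1 and Phlda1 had no entry. The 250 bases before the transcription start are shown for Dusp6 and Spry2, which rose, for Fos, which did not pass, and for the second annotated start of Etv5, whose probe sets disagreed. Capitals mark the core of ETS factor sites (GGAA, on either strand) and the octamers bound by Capicua, the repressor of Etv4 and Etv5 that ERK signalling inactivates (TGAATGAA, TGAATGAG, TGAATGGA, TGAATGGG, TCAATGAA, TCAATGAG, TCAATGGA and TCAATGGG, on either strand). The windows are chr10:99262981-99263230 on the plus strand for Dusp6, chr14:105896820-105897069 on the minus strand for Spry2, chr12:85473640-85473889 on the plus strand for Fos and chr16:22438369-22438618 on the minus strand for Etv5, each written 5′ to 3′ along the gene.
Dusp6: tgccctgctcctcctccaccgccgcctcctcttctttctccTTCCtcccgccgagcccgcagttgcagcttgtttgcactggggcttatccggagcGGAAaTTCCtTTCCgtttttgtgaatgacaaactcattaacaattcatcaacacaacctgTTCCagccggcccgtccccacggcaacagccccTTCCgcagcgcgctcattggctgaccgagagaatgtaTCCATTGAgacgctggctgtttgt
Spry2: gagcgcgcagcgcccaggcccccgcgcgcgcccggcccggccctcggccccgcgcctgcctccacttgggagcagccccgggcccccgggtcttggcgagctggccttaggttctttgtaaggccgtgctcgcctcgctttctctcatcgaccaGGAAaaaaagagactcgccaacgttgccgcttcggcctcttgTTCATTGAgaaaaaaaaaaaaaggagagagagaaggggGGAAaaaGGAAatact
Fos: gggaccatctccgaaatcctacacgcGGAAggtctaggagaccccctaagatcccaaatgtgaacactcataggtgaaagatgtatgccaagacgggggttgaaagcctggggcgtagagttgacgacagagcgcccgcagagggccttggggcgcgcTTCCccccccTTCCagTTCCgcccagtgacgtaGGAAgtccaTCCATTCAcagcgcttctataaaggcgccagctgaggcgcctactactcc
Etv5, second start: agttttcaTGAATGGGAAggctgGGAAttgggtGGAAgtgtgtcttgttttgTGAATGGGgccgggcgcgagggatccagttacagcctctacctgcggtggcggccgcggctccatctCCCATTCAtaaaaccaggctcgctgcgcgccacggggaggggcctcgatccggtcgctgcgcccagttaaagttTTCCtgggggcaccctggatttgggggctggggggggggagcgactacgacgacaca

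The Dusp6 window held 6 ETS cores and 1 Capicua octamer. Spry2 had 3 cores and 1 octamer, and Fos had 5 cores and 1 octamer. The second Etv5 start had 4 cores and 3 octamers, with 1 core overlapping an octamer, whereas the window before the first Etv5 start held neither motif and that of Spred1 held 4 cores and no octamer. An ETS core was present in 93.4% of the 32851 promoter windows of this length, so its presence separates nothing here, and a Capicua octamer in 5.86%. No member window held the AP-1 motif (TGACTCA or TGAGTCA), the cyclic AMP response element (TGACGTCA) or the CArG box of serum response factor. Of all windows 4.46%, 1.55% and 1.47% held them, in that order. The longer ETS form CGGAA, on either strand, was present in 25.2% of all windows. It matched 3 times in Dusp6, 2 times in Fos and 1 time in Spred1, and not in Spry2 or either Etv5 window. Only the 250 bases before each start were searched, and only for these motifs. Sites further upstream and variant sites were not searched, so the promoters, that of Fos included, may still hold such elements. No binding was measured.

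Dusp6 encodes the cytoplasmic phosphatase that removes phosphate from ERK with high selectivity. Its log2 signal was 8.11, 7.79 and 7.78 on the vitamin C arrays, against 7.31, 7.36 and 7.23 on the untreated arrays. Every vitamin C value lay above every untreated value, and vitamin C replicate 1 stood highest. The means were 7.89 ± 0.19 with vitamin C and 7.30 ± 0.063 in untreated cells (SD, n = 3 each), a log2 difference of 0.60 ± 0.10 (SE, adjusted p = 0.0105). By size of difference it ranked 321st among all 19938 genes. Without vitamin C replicate 1 the difference was 0.49 and still passed (adjusted p = 0.0170), and without moderation it did not (adjusted p = 0.0667).

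Dusp4, whose product is a nuclear phosphatase of ERK and other MAP kinases, had log2 signals of 5.77, 5.57 and 5.67 with vitamin C, against 5.70, 5.67 and 5.68 in untreated cells. The groups overlapped, and the 95% interval of the difference ran from -0.18 to 0.15 (-0.01 ± 0.07 SE, adjusted p = 0.913). All 6 of its values lay below the median gene of the same array (5.97 or more), and differences of dim probe sets tend to be compressed. The within-array gap between Dusp6 and Dusp4 was 0.61 larger with vitamin C, with no overlap between the groups. The exact two-sided permutation p was 0.1, the smallest that 3 against 3 arrays allow, and 0.1 after adjustment over 5 such pairs. No pair could therefore pass. Dusp6 was called and Dusp4 was not on these same arrays, so the gap adds no separate evidence of different responses.

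Of 10 genes of the MAP kinase phosphatase family 2 rose, 1 fell and 7 did not pass, beside 13.2% called among all genes. Besides Dusp6 the gene that rose was Dusp16, which encodes a phosphatase acting mainly on JNK and p38, by 0.39 ± 0.07 (SE, adjusted p = 0.0126). Dusp10, another phosphatase of JNK and p38, fell by 0.46 ± 0.10 (SE, adjusted p = 0.0280), with means of 5.19 ± 0.18 with vitamin C and 5.65 ± 0.10 in untreated cells (SD, n = 3 each). It was called although, like Dusp4, it lay below the median gene on all 6 arrays. Its call was lost without vitamin C replicate 3 (adjusted p = 0.0542), untreated replicate 1 (0.0850) or untreated replicate 2 (0.0823), without moderation (0.110) and when all probe sets were tested (0.0752). Dusp1, a nuclear phosphatase of several MAP kinases and itself an immediate-early gene, differed by -0.06 ± 0.07 (SE, adjusted p = 0.610).

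Sprouty proteins are inducible inhibitors of receptor tyrosine kinase signalling. Spry2 had log2 signals of 8.70, 8.52 and 8.63 with vitamin C and 8.25, 8.28 and 8.30 in untreated cells. The untreated arrays lay within a narrow span below all vitamin C arrays. The difference was 0.34 ± 0.07 (SE, adjusted p = 0.0179), the smallest of the 5 rises. It was lost without vitamin C replicate 1 (adjusted p = 0.0580) or 3 (0.0569) and without untreated replicate 1 (0.0595) or 2 (0.0555), while the difference itself stayed between 0.30 and 0.39.

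Spry4 had log2 signals of 6.36, 6.53 and 6.26 with vitamin C, against 5.93, 6.002 and 5.67 in untreated cells. The groups did not overlap, and untreated replicate 3 was the lowest array. The means were 6.38 ± 0.14 with vitamin C and 5.87 ± 0.18 in untreated cells (SD, n = 3 each), a difference of 0.52 ± 0.11 (SE, adjusted p = 0.0228). Its call was lost without vitamin C replicate 1 (adjusted p = 0.0682) or 2 (0.0655), without untreated replicate 1 (0.0533) or 3 (0.0535), without moderation (0.102) and when all probe sets were tested (0.0654).

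Spred1, which brings the RAS inactivator neurofibromin to the membrane, had log2 signals of 7.28, 7.36 and 7.22 with vitamin C and 7.02, 7.13 and 6.96 in untreated cells. All vitamin C arrays were above all untreated arrays, as for 16.8% of genes. The difference of 0.25 ± 0.07 (SE, 95% interval 0.08 to 0.42) did not pass (adjusted p = 0.0623). It passed under 4 of 10 other settings with all 6 arrays, among them the trended and robust spread model (adjusted p = 0.0293) and cyclic loess (0.0353). With 1 array left out it passed in none of the 6 fits (adjusted p from 0.0651 to 0.169).

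Of the 7 Sprouty and SPRED genes as a family, 2 rose, none fell and 5 did not pass, beside 13.2% called among all genes. Spry1 differed by -0.04 ± 0.07 (SE, adjusted p = 0.780), with means of 6.45 ± 0.046 with vitamin C and 6.48 ± 0.081 in untreated cells (SD, n = 3 each). Spred2 differed by 0.11 ± 0.08 (SE, adjusted p = 0.415). Whether Spry1 and Spry2 or Spry4 differed in their response was not tested.

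**Figure D2:**
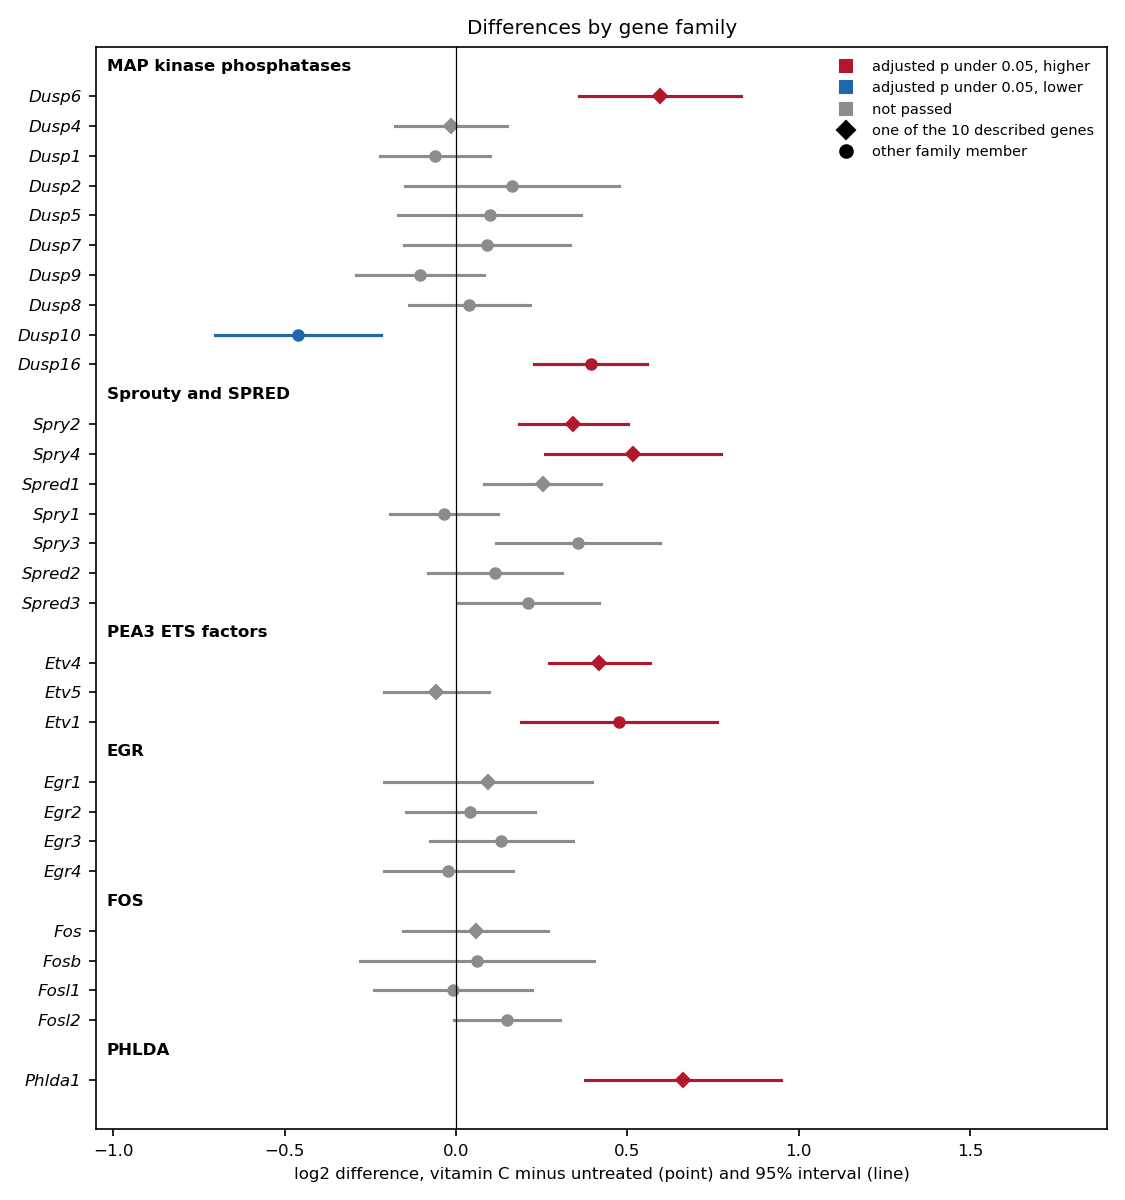
Log2 difference, vitamin C minus untreated, with its 95% interval for every measured gene of the families to which the 10 genes belong (for PHLDA, Phlda1 alone); diamonds are the 10 described genes and circles other family members. Red genes rose and blue genes fell at an adjusted p under 0.05; no EGR or FOS gene passed, and the interval of Dusp4 ends at 0.15, below that of Dusp6, which begins at 0.36.

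The PEA3 group of ETS transcription factors, Etv1, Etv4 and Etv5, is transcribed in response to FGF and ERK signalling. Etv4 had the smallest p of the 10 genes, with log2 signals of 7.46, 7.47 and 7.37 with vitamin C, against 6.997, 7.06 and 6.99 in untreated cells. Replicates of each group lay close together and the groups were well apart. The means were 7.43 ± 0.056 with vitamin C and 7.01 ± 0.041 in untreated cells (SD, n = 3 each), a difference of 0.42 ± 0.06 (SE, adjusted p = 0.00670). It passed with each array left out in turn (adjusted p from 0.0170 to 0.0291) and under all 10 other settings.

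Etv5 was covered by 2 probe sets that disagreed. The brighter one, which the selection rule takes, had log2 signals of 10.002, 9.92 and 9.93 with vitamin C and 10.05, 10.05 and 9.93 in untreated cells. Its groups overlapped, and the difference was -0.06 ± 0.07 (SE, 95% interval -0.21 to 0.09, adjusted p = 0.610). The dimmer one had 9.88, 9.85 and 10.02 with vitamin C, against 9.36, 9.66 and 9.50 in untreated cells. Here all vitamin C arrays lay above all untreated arrays, and the difference was 0.41. In a fit chosen after seeing the data, with this probe set in place of the brighter one among the 19938 genes, it passed (adjusted p = 0.0277) and the count became 6 of 10. When all 35557 probe sets were tested it did not (0.41 ± 0.10 SE, adjusted p = 0.0712).

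The within-array gap between the dimmer and the brighter Etv5 probe set was 0.47 larger with vitamin C, with no overlap between the groups (exact permutation test, two-sided, p = 0.1, the smallest possible). Etv5 lies on chromosome 16. Of the 20 probe sets numbered next to the dimmer probe set and carrying a gene with a known chromosome, 19 belong to genes of chromosome 16, whereas for the brighter probe set all 20 neighbours belong to genes of chromosome 10. Which transcript the brighter probe set detects was not tested, and its value as a measure of Etv5 is uncertain. Etv1 rose by 0.47 ± 0.12 (SE, adjusted p = 0.0437). That call was lost under 7 alternatives, including without vitamin C replicate 1 (adjusted p = 0.118) or 2 (0.101), without untreated replicate 1 (0.117) or 3 (0.124) and without moderation (0.152).

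Egr1 and Fos are immediate-early genes, which serum and growth factors switch on within minutes through serum response elements, and neither passed. Egr1, a zinc finger transcription factor, had log2 signals of 5.69, 5.62 and 5.62 with vitamin C and 5.87, 5.37 and 5.41 in untreated cells. Untreated replicate 1 was the highest of all 6 arrays, and the groups overlapped. The difference was 0.09 ± 0.13 (SE, 95% interval -0.21 to 0.40, adjusted p = 0.691). Without untreated replicate 1 it was 0.25 (adjusted p = 0.0823), so its size rests on that array.

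Fos, a subunit of the AP-1 transcription factor, had log2 signals of 5.68, 5.40 and 5.67 with vitamin C, against 5.48, 5.56 and 5.54 in untreated cells. Vitamin C replicate 2 was the lowest array and the other vitamin C arrays the highest. The difference of 0.06 ± 0.09 (SE, 95% interval -0.15 to 0.27, adjusted p = 0.727) did not pass. Like Dusp4, Egr1 and Fos lay below the median gene on all 6 arrays. So did Egr2, Fosb, Fosl1 and Fosl2, and Egr4 did on 4 of them. None of the 4 EGR genes and none of the 4 FOS genes passed in limma, also at an unadjusted p under 0.05 (0 of 4 each). Their differences ran from -0.02 to 0.13 and from -0.01 to 0.15. Among all 19938 genes, 5777 had an unadjusted p under 0.05 in limma. Differences of dim probe sets tend to be compressed, so these counts do not decide whether the EGR and FOS families responded. The gap between Etv4 and Fos was 0.36 larger with vitamin C and that between Etv4 and Egr1 0.33 larger, each without overlap between the groups. Each had an exact two-sided permutation p of 0.1, the smallest possible, so neither could pass. Etv4 was called and Fos and Egr1 were not on these same arrays, so the gaps add no separate evidence of different responses.

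Phlda1, a pleckstrin homology-like domain gene whose transcript is part of ERK output signatures in cancer cell lines, had the largest difference of the 10. Its log2 signal was 7.48, 7.34 and 7.25 with vitamin C, against 6.47, 6.69 and 6.93 in untreated cells. The groups did not overlap, but the untreated arrays were spread widely. Means of 7.36 ± 0.12 with vitamin C and 6.70 ± 0.23 in untreated cells (SD, n = 3 each) gave a difference of 0.66 ± 0.12 (SE, adjusted p = 0.0141). The call was lost without vitamin C replicate 1 (adjusted p = 0.0543) and without moderation (0.0854).

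**Figure D3:**
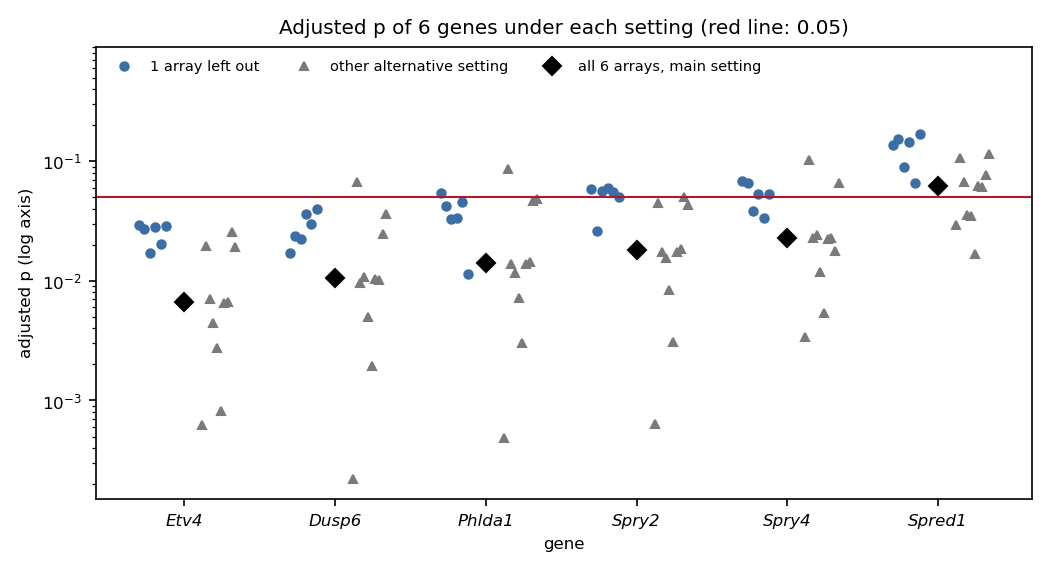
Adjusted p of 6 genes on a log axis, for all 6 arrays in the main setting (diamonds), with 1 array left out (circles) and under the other alternatives (triangles); the red line is 0.05. Etv4 stays under the line at every setting shown, Dusp6 crosses it once (0.0667, no moderation), Spry2 and Spry4 cross it with 4 of the 6 arrays left out in turn, and Spred1 starts above it at 0.0623.

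Among genes that supply or carry the signal, calls went both ways. Of 15 FGF ligand and receptor genes 1 rose, 1 fell and 13 did not pass, a share close to the 13.2% called among all genes, with a median difference of 0.07. Fgf4, the ligand that ES cells make, differed by -0.13 ± 0.06 (SE, adjusted p = 0.240). Fgfr1, an FGF receptor gene through which ES cells respond to Fgf4, was higher by 0.27 ± 0.07 (SE, adjusted p = 0.0374), and Fgfrl1, a receptor that lacks the kinase domain, fell by 0.28 ± 0.07 (SE, adjusted p = 0.0484). Both calls were lost with 5 of the 6 arrays left out in turn, for Fgfr1 at adjusted p up to 0.101 and for Fgfrl1 up to 0.128. Fgfr2 differed by 0.01 ± 0.08 (SE, adjusted p = 0.935).

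Of 18 measured genes for adaptors, RAS proteins and RAS regulators, 1 rose, 2 fell and 15 did not pass, again near that share. The largest fall was that of Rras, which encodes a RAS-related GTPase linked to integrin adhesion, with log2 signals of 7.38, 7.19 and 7.42 with vitamin C and 8.16, 8.08 and 8.39 in untreated cells. Its difference of -0.88 ± 0.10 (SE, adjusted p = 0.00242) was larger in size than that of any of the 10 genes. Nras, a classical RAS gene, fell by 0.43 ± 0.08 (SE, adjusted p = 0.0160; 0.0579 without vitamin C replicate 1 and 0.0662 without moderation), and Mras, which helps to activate RAF, rose by 0.32 ± 0.07 (SE, adjusted p = 0.0293). Mras kept its call in 1 of the 6 fits that left out an array.

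Among 9 measured genes for RAF, MEK, ERK and their scaffolds, 1 rose, 3 fell and 5 did not pass. The called share was above the 13.2% among all genes, of which 5.75% passed as higher and 7.40% as lower. Lamtor3, an endosomal scaffold of MEK and ERK, fell by 0.37 ± 0.06 (SE, adjusted p = 0.00980) and passed with every array left out. Pebp1, a RAF inhibitor protein, fell by 0.27 ± 0.06 (SE, adjusted p = 0.0231). Map2k1, which encodes MEK1, a target of the inhibitor in the medium, fell by 0.27 ± 0.07 (SE, adjusted p = 0.0398), while Map2k2, which encodes MEK2, differed by 0.05 ± 0.09 (SE, adjusted p = 0.760). Araf, a RAF kinase gene, rose by 0.27 ± 0.07 (SE, adjusted p = 0.0398). The calls of Pebp1, Map2k1 and Araf were lost with any 1 array left out (adjusted p from 0.0537 to 0.116).

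Of 9 measured genes for kinases and transcription factors on which ERK acts, 1 rose, none fell and 8 did not pass. The called share was near the 13.2% among all genes. The gene that rose was Erf, an ETS repressor that ERK phosphorylates and drives out of the nucleus. Its log2 signal was 10.21, 10.13 and 10.15 with vitamin C, against 9.36, 9.44 and 9.40 in untreated cells. With a difference of 0.76 ± 0.06 (SE, adjusted p = 0.000620) it exceeded all 10 described genes, and it passed under every alternative run. Of 12 further feedback genes Etv1 alone rose, none fell and 11 did not pass, beside 13.2% called among all genes. Il17rd, an FGF receptor antagonist, differed by -0.15 ± 0.07 (SE, adjusted p = 0.187).

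The 28 other measured immediate-early and ERK-transcribed genes split, with 4 higher, 4 lower and 20 not passing (median 0.06). Among all genes 5.75% passed as higher and 7.40% as lower. Myc, a transcription factor of growth and proliferation, rose by 0.60 ± 0.06 (SE, adjusted p = 0.00152), with log2 signals of 6.99, 6.92 and 6.90 with vitamin C, against 6.33, 6.31 and 6.37 in untreated cells. Ccnd1, which encodes cyclin D1, rose by 0.58 ± 0.06 (SE, adjusted p = 0.00136), with 9.86, 9.83 and 9.83 with vitamin C and 9.24, 9.28 and 9.27 in untreated cells. In the other direction Klf6, a Krüppel-like transcription factor gene, fell by 0.60 ± 0.06 (SE, adjusted p = 0.00153), and Emp1, an epithelial membrane protein gene, fell by 0.57 ± 0.07 (SE, adjusted p = 0.00345). All 4 passed under every alternative run.

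**Figure D4:**
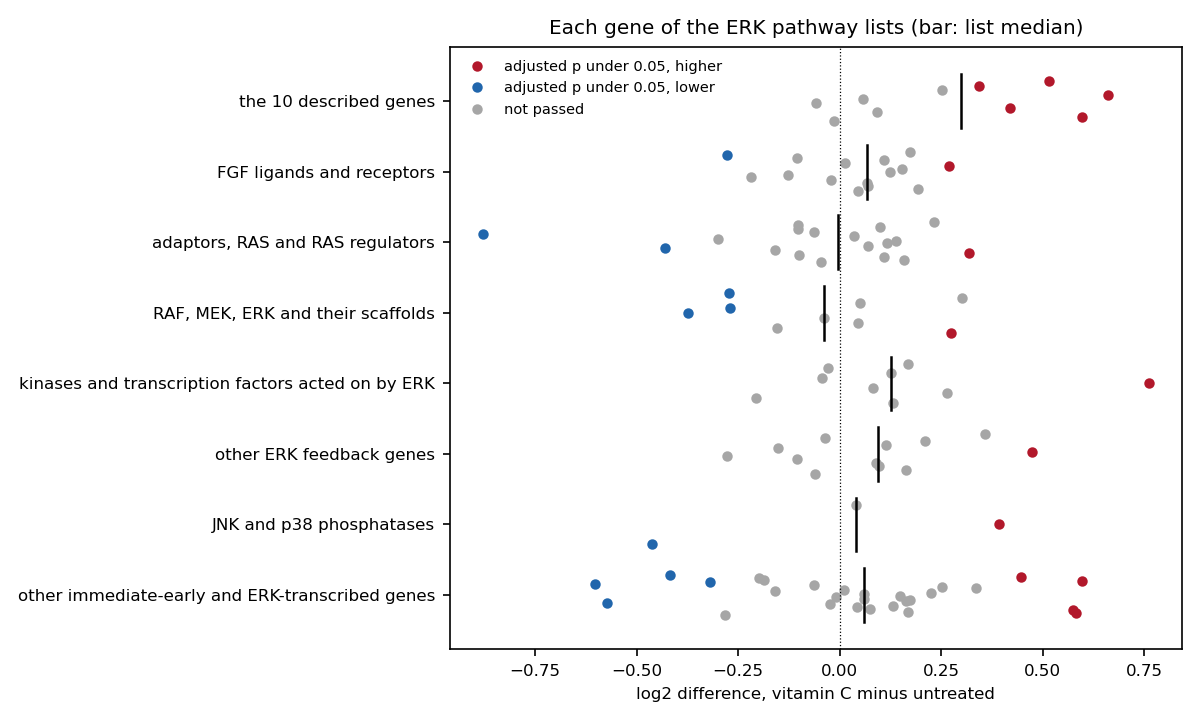
Log2 difference, vitamin C minus untreated, of each measured gene in the described set and in 7 lists of the ERK pathway; dots are genes, red and blue mark an adjusted p under 0.05 and black bars are medians. The described set has its median at 0.30 and no blue dot. Other ERK feedback genes (median 0.09) and the genes that ERK acts on (median 0.13) have no blue dot either. RAS and RAF list medians lie at -0.005 and -0.04 with falls as well as rises.

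The genes whose arrays most resembled those of Etv4 were Papola, Ppp1r10, Smad1, Dhx9 and Atf4. Likeness was the root mean square difference between 6-array log2 profiles centred on each gene's untreated mean, which ran from 0.022 for Papola to 0.029 for Atf4. With 2 groups of 3 arrays this measure mainly picks genes with a similar group difference, here 0.41 to 0.44.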

How the data were processed

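RNA of 3 vitamin C and 3 untreated cultures was hybridised to 6 one-colour Affymetrix arrays. The authors deposited log2 signals (the scale was inferred from the values), made with RMA per the submitters' processing notes. RMA quantile-normalizes arrays, so a shift shared by all genes would not show. The software is not given in the sources used here. Levels cannot be compared between probe sets, no detection calls were used, and 6 arrays limit the precision.

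Of 35557 probe sets, 21789 carried 1 gene symbol in the platform annotation, and the brightest stood for each of 19938 genes. Groups came from sample titles. Limma 3.58.1 in R 4.3.3 (lmFit, eBayes, no covariate) compared vitamin C with untreated, with Benjamini-Hochberg adjustment over all genes and a threshold of 0.05. The fit was tested on simulated data. Pairs of probe sets were compared by exact permutation (scipy 1.17.1). Figures were drawn with matplotlib 3.10.9.

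The members and lists were chosen with earlier results of these data known. Named were the 10 genes, up to 4 called genes per list (smallest p) and 13 fixed names, of which 2 were not analysed here. The dimmer Etv5 probe set and the markers of low signal were singled out after their values were seen. Alternatives changed the spread model, moderation, normalization, the filter on dim genes, the choice of probe sets, array weights, a replicate block and the arrays included.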

Additional observations from a re-analysis of the deposited data

How the results depend on the processing

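The count of called genes over the series was 2623. It was 4151 with a trended and robust spread model, 1545 without moderation, 1723 with the replicate block and 1483 to 1721 with 1 array left out. Under the other settings over genes it was between 2551 and 3552. When all 35557 probe sets were tested, named or not, 2114 probe sets were called, a count not of genes. Among the 10 described genes the count was 5; it was 2 without moderation, 2 to 4 with 1 array left out, 4 with the replicate block and 4 to 6 otherwise, and no member was called lower under any setting run. Etv5 differed by 0.41 with its dimmer probe set in place of the brighter one (-0.06), a setting chosen after seeing the data. Whether the replicate numbers pair the cultures was checked by correlating deviations from the group means. Same-numbered arrays correlated at 0.052, 0.0096 and -0.024, and differently numbered ones at -0.067 to 0.055. No pairing by number was seen, but with 3 arrays per group a weak one could be missed. With the block the call of Spry2 was lost (adjusted p = 0.0504), as were those of Nras (0.0533), Fgfr1, Fgfrl1, Pebp1, Map2k1, Araf and Etv1. For the 24 other named genes, 310 of 381 values under alternatives kept direction and side of the threshold, 65 kept direction and lost the call, and none gained a call. The other 6 changed sign without a call in either fit and belong to Fgfr2, Map2k2 and Spry1. Among the 10 genes Dusp4 likewise changed sign without a call (0.03 without vitamin C replicate 2), as did Etv5 with the mean of its probe sets (0.18). The causes of these changes were not tested. Dusp4, Egr1 and Fos were not tested among genes above the median signal, since they lie below it.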
